A study of Homo sapiens with 16 samples.

Results

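The short arm of chromosome 9 was followed through 46 genes of its distal stretch, from the telomere to about 28 Mb on GRCh38, in the 16 RNA-sequencing libraries of the T24 bladder cancer line and the gemcitabine-resistant GRC1 line made from it. The genes were chosen by their position and by their levels in the parental phase P0 and in phases P3 and P7, where the stretch was lowered together, so P3 and P7 are set against P0 as a description, with no test. All 46 were in the deposited table of 39007 gene symbols, and 39 of them had a mean above 1 CPM (counts scaled to a fixed library total) and were analysed among the 13249 genes that passed this minimum. Parental phase P0 is untreated T24, an established line from a human urothelial carcinoma, and P3 (early), P7 (intermediate) and P15 (late) are phases of GRC1, before each of which cells had been exposed to gemcitabine, a deoxycytidine analogue, and regrown as colonies. Each phase had 4 libraries, the culture medium named in the labels lists no gemcitabine, and P3, P7 and P15 are steps of a single selected line, so they do not stand for independent selections. The labels number the libraries as replicates without saying whether they came from separate cultures, and the p-values therefore measure only the spread between these libraries.

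Genes that lie side by side on a chromosome arm share its copies and its large chromatin domains, and losses on chromosome 9 are among the common changes of urothelial tumours. The distal short arm carries the genes of the programmed death ligands PD-L1 and PD-L2 next to the cytokine receptor kinase JAK2. It also carries the methylthioadenosine phosphorylase gene MTAP, several chromatin and transcription factors, and many genes of general cell maintenance with unrelated functions. The values are log2(CPM + 1) as the authors deposited them, and a difference is the phase mean minus the mean of the other phase on that scale, which understates changes of low genes.

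Estimated library totals, read from the steps between low values, were 33.7 to 50 M, which makes 1 count worth 0.02 to 0.0297 CPM. Of 18 urothelial and epithelial markers, 9 had a mean above 1 CPM in P0 and 8 in each later phase, with summed levels of 2243, 2492, 1869 and 744 CPM in phase order. Keratin KRT7 had a mean of 957 CPM in P0 and 11.5 in P15, KRT8 of 593 and 70.3, KRT19 of 85.1 and 0.012, and the luminal factor GATA3 of 36.2 and 1.43, whereas KRT18 was at 471 and 633 CPM. The basal and luminal markers KRT5, KRT20, UPK1B, UPK3A and TP63, the epithelial cadherin CDH1 and GRHL3 stayed below 0.1 CPM in all phases. The uroplakin UPK1A had means of 0.075, 0.267, 0.602 and 1.981 CPM in phase order, and ELF3 of 3.392, 0.139, 0.552 and 3.985. From P0 to P15, FOXA1 went from 28.463 to 3.264 CPM and PPARG from 62.255 to 16.792. EPCAM went from 5.407 to 0.811 CPM and UPK2 from 0.84 to 0.593. Markers of leukocytes, endothelium, stroma, muscle and red cells numbered 12. Of these, 3 were above 1 CPM in P0, 1 in P3 and P7 and 2 in P15. The summed levels of the 12 were 14.5, 2.61, 6.36 and 27.3 CPM in phase order. The 3 above 1 CPM in P0 were COL1A1, CDH5 and PDGFRB. In phase order, COL1A1 had means of 5.012, 1.758, 5.146 and 23.965 CPM. CDH5 had means of 5.693, 0.219, 0.0 and 0.132 CPM, and PDGFRB of 2.768, 0.265, 0.597 and 2.375 CPM. The leukocyte markers PTPRC and CD3E were at or near 0. The part of these differences in the results was not tested. In these bulk libraries a lower level in every cell and a smaller share of cells with the gene switched on cannot be told apart.

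In P3, 33 of the 39 members had a lower mean than in P0, and in P7 36 did. The median difference of the members from P0 was -0.49 in P3, with the middle 50% between -0.72 and -0.24, and -0.44 in P7, with the middle 50% between -0.69 and -0.23. Over all 13249 tested genes the median difference was -0.03 in each of the 2 phases. These values are the ones by which the stretch was picked, and nothing is read from them.

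In P3, 21 of the 39 members lay between -0.9 and -0.3, and in P7 24 did. The others ranged more widely, over all members from -2.22 for DOCK8 to 1.47 for CD274 in P3 and from -2.92 for ELAVL2 to 0.41 for VLDLR in P7. Taken library by library as the median of the members relative to the P0 gene means, the level was -0.52, -0.55, -0.49 and -0.51 in the P3 libraries and -0.51, -0.37, -0.55 and -0.45 in the P7 libraries. The SD of these medians over the 4 libraries was 0.03 in P3 and 0.08 in P7. The P0 libraries lay at 0.03, -0.06, 0.01 and -0.02 and the P15 libraries at -0.01, -0.11, 0.06 and 0.02. Every P3 and P7 library thus lay below every P0 and P15 library, and replicate 2 of P7, which also had the largest estimated total of all 16 libraries, lay highest within its phase.

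**Figure D1:**
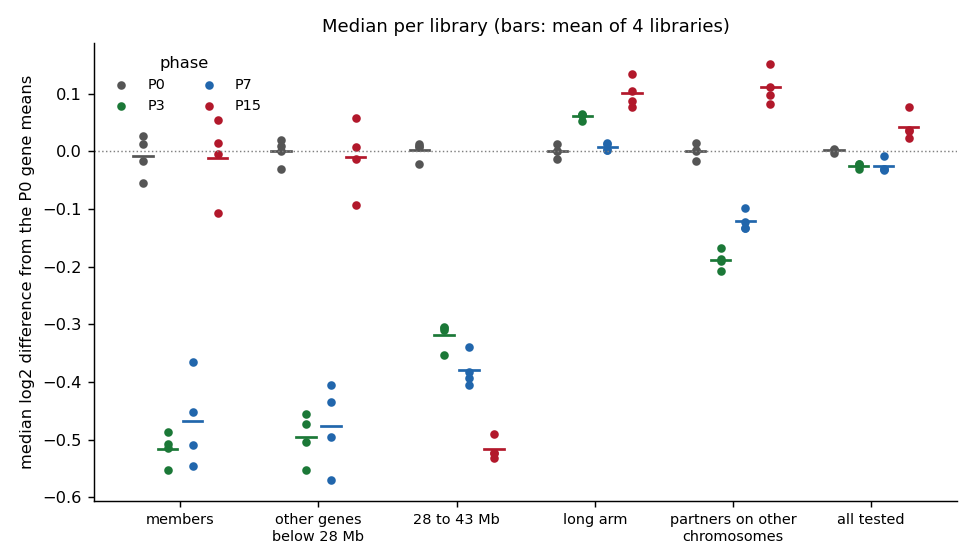
Median log2 difference from the P0 gene means in each library (points; y axis, log2 units) for the 39 members and 5 other gene sets (x axis), with bars at the mean of the 4 libraries of a phase. The members and the other genes below 28 Mb sat near -0.5 in P3 and P7 and near 0 in P15, whereas the genes at 28 to 43 Mb sat at -0.32 in P3, -0.38 in P7 and -0.52 in P15.

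The gene-by-gene picture along the arm was then examined for genes that the list left out. Below 28 Mb, 15 further protein-coding genes were tested, and their median difference from P0 was -0.48 in P3 and -0.49 in P7, close to that of the members. Of these 15, 14 had a lower mean than in P0 in each of the 2 phases, where 7010 (P3) and 7112 (P7) of all 13249 tested genes did. These neighbours lie in the stretch that was chosen by the same phases, so their low values are a description and no separate support. RPS6, a protein of the small ribosomal subunit, was the lowest of them, with a mean of 10.63 at P0, 9.68 at P3, then 9.72 at P7 and 10.62 at P15. WASHC1, the tested gene nearest the telomere, differed from P0 by 0.10 in P3 and 0.25 in P7, but it belongs to a family of near-identical copies whose reads may be shared.

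The tested genes of chromosome 9 fell into windows of 5 Mb, and the medians of the windows between the telomere and 30 Mb ranged from -0.71 to -0.31 in P3 and from -0.65 to -0.34 in P7. Among 463 such windows of the genome with at least 8 tested protein-coding genes, the window at 20 to 25 Mb had the lowest median of all in both P3 (-0.71) and P7 (-0.62). The window at 0 to 5 Mb was second in both, at -0.55 and -0.58. In P15 the same 2 windows had medians of 0.19 and 0.04 against P0 and ranked 318 and 218 from the lowest. The ranks in P3 and P7 restate the choice of the stretch and are given as a description.

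The stated limit of the stretch, 28 Mb, was not where the lowering in P3 and P7 stopped. The last tested member, IFT74 (26947039 to 27066134), was lower by 0.69 in P3 and by 0.43 in P7. MOB3B, which is not a member, lies between IFT74 and the limit and differed by -0.55 and -0.74. On the far side, the first 3 tested protein-coding genes were ACO1, TOPORS and NDUFB6, all between 32.4 and 32.6 Mb, with differences of -1.23, -0.65 and -0.49 in P3 and of -1.20, -0.62 and -0.20 in P7. In P15 their differences from P0 were -2.42 (SE 0.03), -0.94 (SE 0.04) and -0.56 (SE 0.07), with limma adjusted p = 1.2e-26, 2.7e-16 and 2.2e-08. Over the 66 tested protein-coding genes at 28 to 43 Mb the median difference from P0 was -0.32 in P3 and -0.36 in P7. On the long arm, above 60 Mb, the median of 339 genes was 0.06 in P3 and 0.01 in P7.

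**Figure D2:**
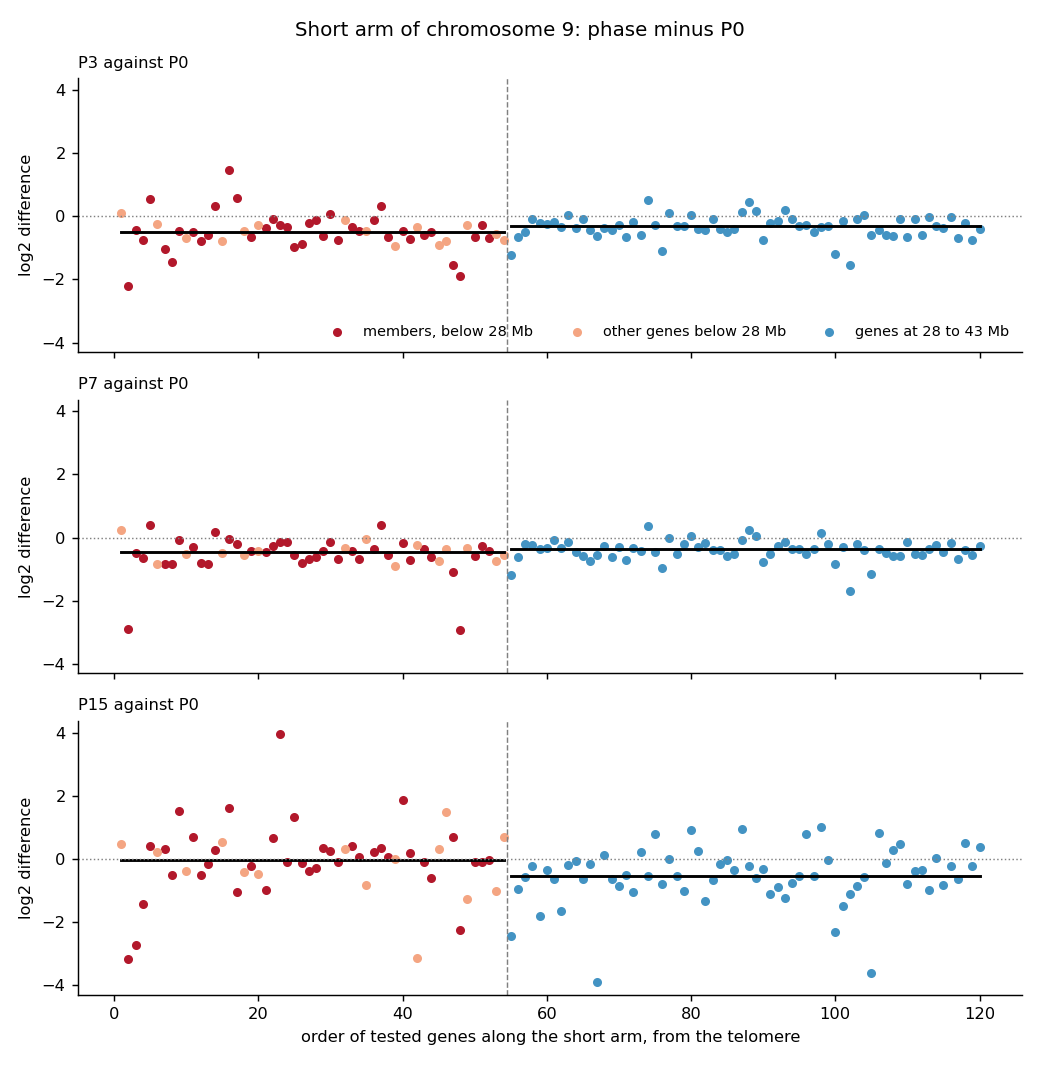
Log2 difference from P0 (y axis) of the 120 tested protein-coding genes of the short arm in their order from the telomere (x axis, gene rank), for P3, P7 and P15, with horizontal bars at the median of the genes on either side of 28 Mb (dashed line). The cloud of genes lay below 0 on both sides in P3 and P7, and in P15 the median below 28 Mb was back at about 0 while that above it was -0.54.

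Late phase P15 was compared with P0, whose libraries, unlike those of P15, also entered the choice of the genes. Among the 39 members, 16 were lower and 17 higher in P15, and 6 were not told apart (limma, adjusted p-value below 0.05, Benjamini-Hochberg over all tested genes). Over all tested genes 40.9% were called lower and 45.3% higher, so the members' 41.0% and 43.6% were near the background. The median difference of the members from P0 was -0.03, where that of all tested genes was 0.04. In the 66 genes at 28 to 43 Mb, 47 (71.2%) were lower and 13 (19.7%) higher in P15, and the median was -0.54. Of the other 15 tested genes below 28 Mb, 7 (46.7%) were lower and 7 (46.7%) higher, also near the background, with a median of -0.01.

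At least 0.5 lower in P15 with an adjusted p-value below 0.05 were 8 members, and at least 0.5 higher were 8, where 24.3% and 26.7% of all tested genes passed. The 3 members that rose most from P0 to P15 were GLDC, MLLT3 and CD274, and the 3 that fell most were DOCK8, KANK1 and ELAVL2, whose values follow with their roles. The 6 members not told apart from P0 in P15 were KDM4C, CNTLN, DENND4C, KLHL9, CAAP1 and IFT74, with differences between -0.10 and 0.08. KLHL9, an adaptor of a ubiquitin ligase, was close to the threshold, at -0.09 (SE 0.04, limma adjusted p = 0.051), and passed it in 9 of the alternative fits.

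Against the phases in which the stretch was low, P15 was mostly higher. From P7 to P15, 29 members rose and 5 fell, where 46.3% of all tested genes were called higher and 40.1% lower. From P3 to P15, 27 rose and 9 fell, where 46.1% and 41.1% of all tested genes were called. The medians were 0.47 and 0.45, against 0.06 and 0.05 over all tested genes. Since the members were chosen for low values in P3 and P7, higher values in P15 are partly favoured by the choice. At 28 to 43 Mb the median from P7 to P15 was -0.04, with 27 genes higher and 29 lower. The largest rises of members from P7 to P15 were those of GLDC, MLLT3 and LURAP1L (4.10, 2.02 and 1.88) and from P3 to P15 those of the same genes (4.24, 2.33 and 2.29). The deepest falls from P7 were those of KANK1, PDCD1LG2 and SMARCA2 (-2.23, -0.84 and -0.78) and from P3 those of KANK1, PDCD1LG2 and DOCK8 (-2.30, -1.61 and -0.96). All of these passed the test, with limma adjusted p between 2.8e-23 and 7.4e-08. GLDC, which had the lowest of these p-values, passed the minimum of 1 CPM through P15 alone, so its rise was built into its being tested.

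P7 was then compared with P3. Both phases entered the choice of the members, which asked for low values in each and did not set their order. Of the members, 12 were lower and 11 higher in P7 than in P3 (limma, adjusted p-value below 0.05), where 28% and 30.3% of all tested genes were called, and the median was 0.01. Single members did move between the 2 phases. The highest differences of P7 from P3 were 0.63 for GLIS3, 0.46 for DMRTA1 and 0.41 for LURAP1L (SE 0.06, 0.11 and 0.07, limma adjusted p = 3.9e-09, 0.00076 and 1.7e-05). The lowest were those of CD274, ELAVL2 and PDCD1LG2, at -1.51, -1.04 and -0.76 (SE 0.06, 0.12 and 0.10, limma adjusted p = 9.1e-16, 1.9e-07 and 5.1e-07).

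**Figure D3:**
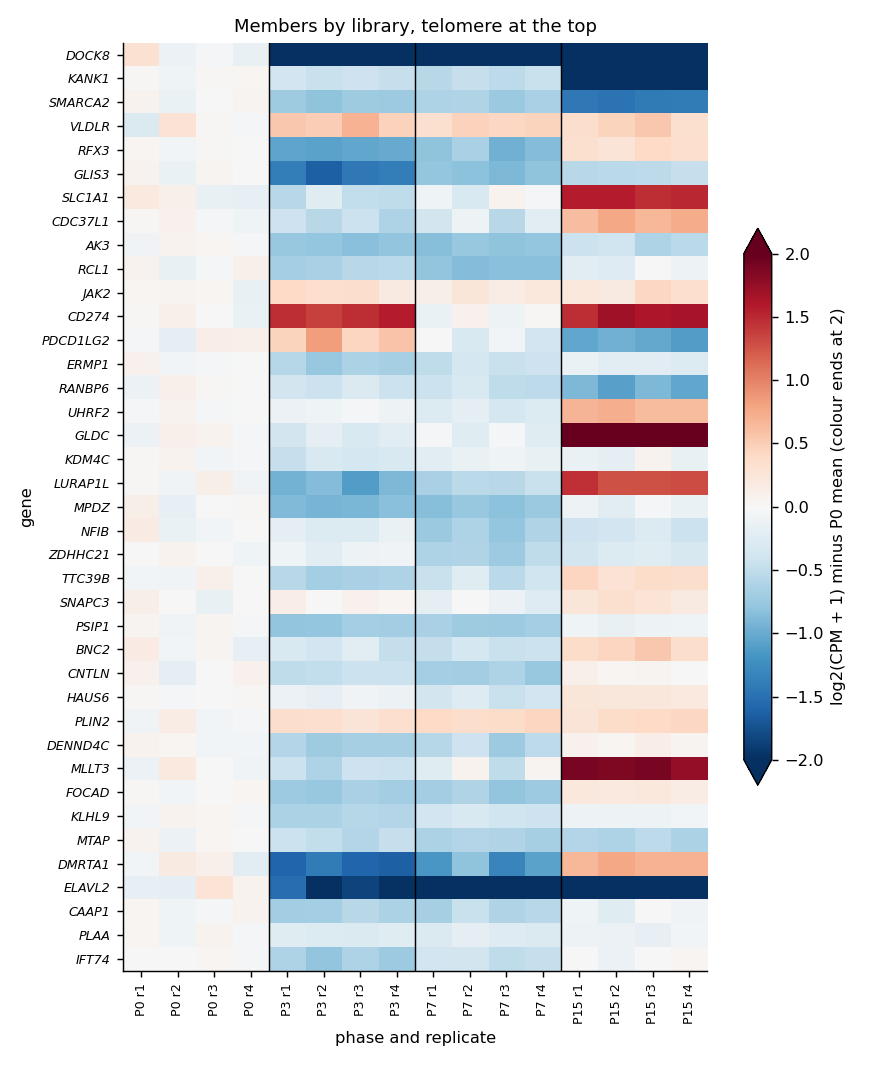
Log2(CPM + 1) minus the P0 mean (colour, ending at 2) of the 39 tested members (rows, from the telomere down) in the 16 libraries (columns, by phase and replicate). Most rows were pale blue in P3 and P7 and near white or red in P15, with VLDLR, JAK2 and PLIN2 red in P3, P7 and P15.

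PSIP1 encodes a chromatin-bound coactivator that tethers proteins to transcribed genes. It read 7.33, 7.21, 7.34 and 7.25 in the P0 libraries, 6.50, 6.51, 6.60 and 6.58 in P3, 6.63, 6.57, 6.56 and 6.61 in P7, and 7.19, 7.14, 7.18 and 7.19 in P15. The P3 and P7 libraries overlapped each other and lay well under both other phases. From P0 to P15 PSIP1 changed by -0.11 (SE 0.03, limma adjusted p = 0.006), and from P7 to P15 it rose by 0.58 (SE 0.03, limma adjusted p = 6.2e-14). The members were chosen for low values in P3 and P7, which partly favoured the rise from P7.

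FOCAD, a focal adhesion gene, had the same course and ended above its start. Its values were 6.02, 5.94, 5.99 and 6.03 in P0, 5.27, 5.23, 5.34 and 5.30 in P3, 5.30, 5.39, 5.21 and 5.27 in P7, and 6.21, 6.19, 6.21 and 6.14 in P15. No P15 library overlapped P0, and the rise from P0 to P15 was 0.19 (SE 0.04, limma adjusted p = 0.00013). P3 and P7 differed by 0.01 (SE 0.04, limma adjusted p = 0.89).

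MTAP, the enzyme that salvages adenine and methionine from methylthioadenosine, was low in every later phase. It read 6.14, 5.96, 6.11 and 6.07 in P0, 5.64, 5.57, 5.49 and 5.61 in P3, 5.44, 5.48, 5.47 and 5.41 in P7 and 5.48, 5.46, 5.55 and 5.44 in P15. All 12 libraries of the later phases lay below all P0 libraries. Its difference of P15 from P7, 0.03, did not pass the test (SE 0.04, limma adjusted p = 0.49), and it fell by 0.59 from P0 to P15 (SE 0.04, limma adjusted p = 5.5e-12).

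Other members of metabolism differed in their late course. AK3, a mitochondrial adenylate kinase, was at 5.76 ± 0.07 (SD, n = 4) at P0, 4.97 ± 0.04 at P3, then 4.96 ± 0.04 at P7 and 5.27 ± 0.10 at P15. RCL1, which takes part in processing of ribosomal RNA, was at 4.60 ± 0.11 in P0, 3.77 ± 0.03 in P7 and 4.45 ± 0.12 in P15, and its P15 difference from P0 of -0.15 passed the test (limma adjusted p = 0.029) but not when replicate 1 or 4 of P0, or replicate 1 or 2 of P15, was left out. GLDC, the decarboxylase of the glycine cleavage system, had the highest P15 difference from P0. It passed the minimum of 1 CPM through P15 alone, where its mean was 27.8 CPM, against 0.680 CPM over the other phases, so a difference between phases was built into its being tested. It read 0.75, 0.97, 0.95 and 0.83 in P0, 0.51, 0.68, 0.57 and 0.67 in P3, 0.84, 0.64, 0.85 and 0.64 in P7 and 4.74, 4.88, 4.92 and 4.84 in P15. Its P15 libraries stood apart from the other 12, and the difference from P0 was 3.97 (SE 0.09, limma adjusted p = 1.1e-22). SLC1A1, through P15, and ELAVL2, through P0, were the other members tested on the strength of a single phase, with 0.80 and 0.815 CPM over their other phases.

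SLC1A1, a glutamate and cysteine transporter, rose by 1.53 from P0 to P15 (SE 0.10, limma adjusted p = 1e-12), from a mean of 1.01. That rise, too, was built into its being tested, since SLC1A1 passed the minimum through P15 alone. VLDLR, a lipoprotein receptor, and PLIN2, a lipid droplet coat protein, were exceptions to the lowering. VLDLR was at 3.34 ± 0.24 (SD, n = 4) in P0, 3.88 ± 0.10 in P3 and 3.75 ± 0.10 in P15, and PLIN2 at 5.43 ± 0.10, 5.75 ± 0.04 and 5.79 ± 0.07 in the same phases. Both were higher in P15 than in P0, by 0.41 and 0.36 (SE 0.09 and 0.05, limma adjusted p = 0.00015 and 1.2e-07). No later library of PLIN2 overlapped P0, whereas for VLDLR the highest P0 library, at 3.63, lay just under the lowest later ones, at 3.66.

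JAK2, CD274 and PDCD1LG2 lie between 4984390 and 5571282, inside the lowered stretch, and did not share its course. They are not an unbroken block. PLGRKT, which lies between JAK2 and CD274 and is not a member, differed from P0 by -0.795 in P3 and -0.49 in P7. RLN2, an untested member that also lies there, had mean log2 values of 1.24 at P0, 0.60 at P3 and 0.64 at P7. JAK2 encodes the kinase that signals from interferon gamma and cytokine receptors, and CD274 and PDCD1LG2 encode PD-L1 and PD-L2, ligands of the T cell receptor PD-1. JAK2 read 3.85, 3.86, 3.85 and 3.66 in P0, 4.21, 4.14, 4.16 and 3.98 in P3, 3.92, 4.05, 3.95 and 4.02 in P7 and 4.02, 3.98, 4.22 and 4.14 in P15. All later libraries were above all P0 libraries, by a small step, and P15 exceeded P0 by 0.28 (SE 0.07, limma adjusted p = 0.00041).

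CD274 was high in P3 and P15 and near its P0 level in P7. Its values were 4.19, 4.27, 4.18 and 4.03 in P0, 5.64, 5.54, 5.64 and 5.74 in P3, 4.03, 4.25, 4.07 and 4.19 in P7 and 5.65, 5.86, 5.79 and 5.81 in P15. The P0 and P7 libraries overlapped, and so did those of P3 and P15. CD274 rose by 1.61 from P0 to P15 (SE 0.06, limma adjusted p = 7.5e-18). It fell by 1.51 from P3 to P7 (SE 0.06, limma adjusted p = 9.1e-16) and rose by 1.64 from P7 to P15 (SE 0.06, limma adjusted p = 4.5e-18). The difference of P15 from P3, 0.14, passed the threshold (limma adjusted p = 0.038) and lost it in 10 of the alternative fits, among them those without replicate 1, 2 or 3 of P3 or replicate 2, 3 or 4 of P15.

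PDCD1LG2, the next member along the chromosome, was also highest in P3 but lowest in P15. It read 3.22, 3.05, 3.39 and 3.35 in P0, 3.70, 4.09, 3.68 and 3.83 in P3, 3.24, 2.94, 3.20 and 2.87 in P7 and 2.22, 2.29, 2.23 and 2.14 in P15. The P3 libraries lay above and the P15 libraries below all others. It fell by 0.76 from P3 to P7 (SE 0.10, limma adjusted p = 5.1e-07) and by 1.03 from P0 to P15 (SE 0.10, limma adjusted p = 6.1e-10), so the ligand genes moved alike from P3 to P7 and in opposite directions from P0 to P15.

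**Figure D4:**
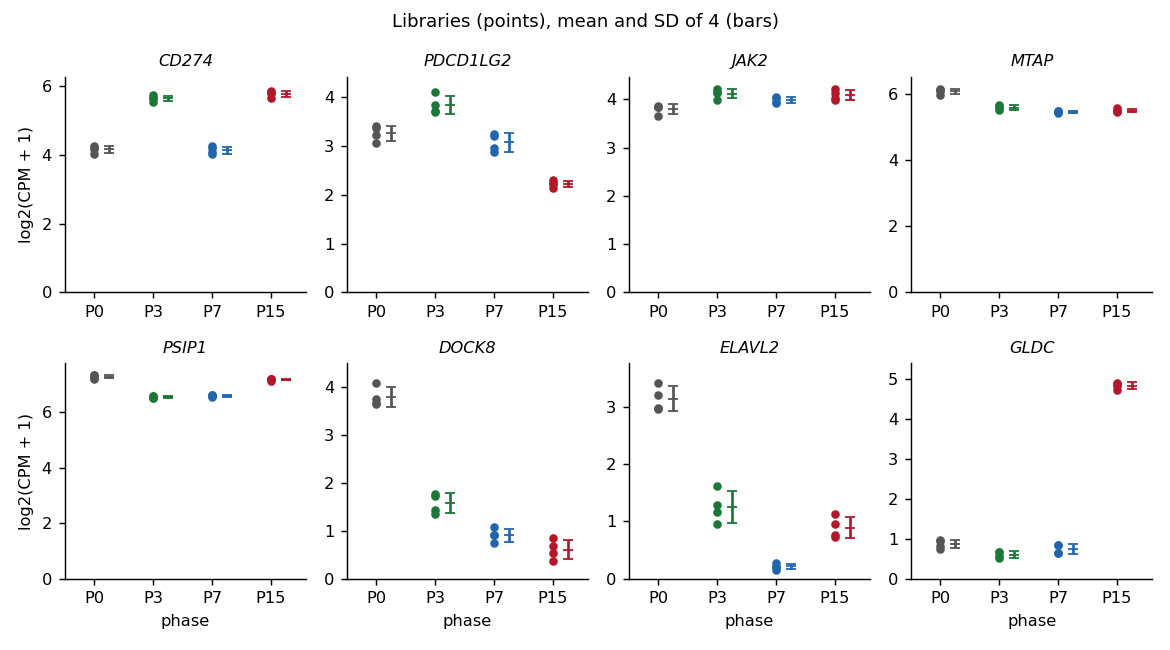
Levels of 8 members (y axis, log2(CPM + 1), from 0) in the 4 libraries of each phase (points; x axis), with the mean and SD beside them. PSIP1 was low in P3 and P7 and back near P0 in P15, MTAP stayed low, DOCK8 and ELAVL2 were far below P0 in every later phase, GLDC was high in P15 alone, and CD274 was high in P3 and P15.

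Promoter sequence is shown for CD274 and JAK2, which were among the 6 members with a higher mean in P3 than in P0, and for DOCK8, the member with the lowest P3 difference. The others of the 6, not shown, were VLDLR, PDCD1LG2, SNAPC3 and PLIN2. PDCD1LG2 and VLDLR stood further above P0 in P3 than JAK2, by 0.57 and 0.54 against 0.32. The bases are those before the start of the gene in RefSeq and in the annotation used here, 5′ to 3′ on the plus strand of GRCh38.p14, at chr9:5450292-5450502 for CD274, chr9:4984140-4984389 for JAK2 and chr9:214615-214853 for DOCK8. Capitals mark matches, on either strand, to an interferon regulatory factor repeat (GAAANNGAA) and to a STAT element (TTCNNNGAA); an E-box (CACGTG) was searched too.
CD274: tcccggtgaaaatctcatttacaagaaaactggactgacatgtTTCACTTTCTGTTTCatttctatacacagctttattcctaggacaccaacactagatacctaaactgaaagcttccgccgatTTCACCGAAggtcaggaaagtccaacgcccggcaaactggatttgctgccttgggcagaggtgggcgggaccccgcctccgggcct
JAK2: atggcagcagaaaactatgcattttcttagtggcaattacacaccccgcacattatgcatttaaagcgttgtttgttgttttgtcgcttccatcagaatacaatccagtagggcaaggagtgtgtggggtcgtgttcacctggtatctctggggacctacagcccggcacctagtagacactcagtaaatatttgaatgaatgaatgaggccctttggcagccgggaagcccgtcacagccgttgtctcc
DOCK8: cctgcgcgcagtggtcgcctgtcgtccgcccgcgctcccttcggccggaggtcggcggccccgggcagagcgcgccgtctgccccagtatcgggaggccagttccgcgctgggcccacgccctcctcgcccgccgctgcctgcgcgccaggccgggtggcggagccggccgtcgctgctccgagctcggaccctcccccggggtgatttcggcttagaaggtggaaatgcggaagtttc
The first run of capitals in CD274 holds 2 matches to the interferon regulatory factor repeat that overlap each other, the second a STAT match, and neither of the other promoters holds any of the 3 motifs. Over the 300-base RefSeq windows of 27305 genes, one per gene, 8.29% held the interferon regulatory factor repeat, 7.88% the STAT element and 7.43% the E-box. Of the 46 members, 43 had such a window, of which 4 held the repeat (CD274, NFIB, PSIP1 and ADAMTSL1), 2 the STAT element (CD274 and TYRP1) and 3 the E-box (RCL1, KDM4C and PLIN2). CD274 was the member that held both. A match describes the letters only.

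DOCK8, an activator of CDC42, KANK1, a regulator of the actin cytoskeleton, and SMARCA2, an ATPase of the SWI/SNF remodelling complex, are the first members from the telomere and were lowest in P15. DOCK8 (214854 to 465259) read 4.09, 3.67, 3.75 and 3.64 in P0, 1.44, 1.35, 1.73 and 1.77 in P3, 0.92, 0.91, 1.07 and 0.74 in P7 and 0.38, 0.68, 0.53 and 0.85 in P15. Its mean was lower in each later phase, with differences from P0 of -2.22 in P3, -2.88 in P7 and -3.18 in P15 (SE 0.12, limma adjusted p = 8.4e-18). The P7 and P15 libraries overlapped, and their difference of -0.30 (limma adjusted p = 0.024) was lost without replicate 3 of P7 or replicate 1 or 3 of P15.

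KANK1 differed from P0 by -0.43 in P3 and -0.50 in P7, near the median of the members, and then fell steeply. It read 5.26, 5.16, 5.27 and 5.28 in P0, 4.86, 4.79, 4.83 and 4.78 in P3, 4.69, 4.78, 4.72 and 4.79 in P7 and 2.61, 2.68, 2.40 and 2.39 in P15. Its difference of P15 from P0 was -2.72 (SE 0.06, limma adjusted p = 2.1e-22). SMARCA2 was at 6.21 ± 0.09 (SD, n = 4) at P0, 5.47 ± 0.05 at P3, then 5.56 ± 0.06 at P7 and 4.78 ± 0.04 at P15.

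MLLT3, a reader of acylated histones in the super elongation complex, read 2.74, 3.05, 2.86 and 2.78 in P0, 2.42, 2.24, 2.44 and 2.43 in P3, 2.61, 2.93, 2.35 and 2.91 in P7 and 4.76, 4.73, 4.75 and 4.62 in P15. Its libraries of P0 and P7 overlapped, and the rise from P0 to P15 was 1.86 (SE 0.10, limma adjusted p = 1.3e-14). UHRF2, a ubiquitin ligase that binds modified DNA and histones, was at 5.38 ± 0.05 in P0, 5.10 ± 0.06 in P7 and 6.04 ± 0.05 in P15. KDM4C, a histone demethylase, was at 4.52 ± 0.06 in P0, 4.16 ± 0.08 in P3 and 4.42 ± 0.11 in P15.

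ELAVL2, an RNA-binding protein known from neurons, and the transcription factors RFX3, GLIS3 and DMRTA1 had deeper lows than the median member. ELAVL2 read 2.98, 2.96, 3.41 and 3.20 in P0, 1.61, 0.96, 1.28 and 1.16 in P3, 0.28, 0.21, 0.16 and 0.21 in P7 and 0.73, 0.95, 1.12 and 0.77 in P15. Its P7 libraries lay under all others and its P0 libraries above all others, with a P15 difference from P0 of -2.24 (SE 0.12, limma adjusted p = 2e-14). ELAVL2 passed the minimum of 1 CPM through P0 alone, so a fall from P0 was built into its being tested. It rose again by 0.68 from P7 to P15 (SE 0.12, limma adjusted p = 2.3e-05), which the choice of genes low in P7 partly favoured. RFX3, a factor of ciliated and islet cells, differed from P0 by -1.04 in P3 and stood 0.32 above it in P15 (SE 0.07, limma adjusted p = 0.0002).

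GLIS3, a zinc finger factor, was at 5.03 ± 0.09 (SD, n = 4) at P0, 3.57 ± 0.12 at P3, then 4.20 ± 0.05 at P7 and 4.51 ± 0.04 at P15, which was a stepwise return that stopped 0.52 short of P0 (SE 0.06, limma adjusted p = 2.1e-08). DMRTA1, a DM domain factor, went from 1.87 ± 0.18 to 0.32 ± 0.11 in P3 and to 2.58 ± 0.05 in P15, the latter above P0 by 0.71 (SE 0.11, limma adjusted p = 1.5e-06). NFIB, a nuclear factor I protein, and its neighbour ZDHHC21, a palmitoyltransferase, had lower means in P7 than in P3. NFIB was at 5.72 ± 0.12 at P0, 5.50 ± 0.07 at P3 and then 5.03 ± 0.09 at P7, and ZDHHC21 at 4.80 ± 0.07, 4.69 ± 0.07 and 4.19 ± 0.09. Both fell from P3 to P7, NFIB by 0.46 and ZDHHC21 by 0.49 (SE 0.06 and 0.05, limma adjusted p = 2.6e-07 and 5.2e-08).

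Members of the centrosome and cell junctions were near or above P0 in P15. HAUS6, a subunit of the augmin complex that branches spindle microtubules, was at 5.52 ± 0.03 (SD, n = 4) at P0, 5.40 ± 0.04 at P3, then 5.16 ± 0.08 at P7 and 5.74 ± 0.02 at P15. CNTLN, a centriole linker, was at 4.64 ± 0.12, 4.18 ± 0.04, 3.96 ± 0.06 and 4.70 ± 0.03. MPDZ, a scaffold of tight junctions, went from 5.95 ± 0.12 to 5.06 ± 0.04 in P3 and 5.83 ± 0.08 in P15.

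IFT74, a subunit of the intraflagellar transport machinery, and PLAA, a ubiquitin-binding partner of the segregase VCP, start next to each other on opposite strands and overlap. SNAPC3 and PSIP1, also on opposite strands, overlap where the genes end. Without a stated strand setting, the reads of each pair cannot be fully told apart. IFT74 was at 4.91 ± 0.03 at P0, 4.22 ± 0.08 at P3, then 4.47 ± 0.07 at P7 and 4.88 ± 0.06 at P15. PLAA was at 6.27 ± 0.07, 6.01 ± 0.02, 6.01 ± 0.04 and 6.17 ± 0.05. The differences from P0 in P3 were -0.69 and -0.26, and in P15 that of IFT74 was -0.03 (SE 0.05, limma adjusted p = 0.65). SNAPC3, a subunit of the complex that starts transcription of small nuclear RNA genes, differed from P0 by 0.06 in P3 and by -0.14 in P7, although it overlaps PSIP1, and exceeded P0 by 0.26 in P15 (SE 0.06, limma adjusted p = 0.00021).

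The remaining tested members split in P15. LURAP1L, a leucine-rich adaptor protein, was at 3.89 ± 0.09 (SD, n = 4) at P0, 2.94 ± 0.11 at P3, then 3.35 ± 0.08 at P7 and 5.22 ± 0.09 at P15, a rise of 1.33 over P0 (SE 0.07, limma adjusted p = 3.7e-15). CDC37L1, a relative of the HSP90 cochaperone CDC37, differed from P0 by -0.50 in P3, -0.31 in P7 and 0.70 in P15 (SE 0.08, limma adjusted p = 3e-08). TTC39B and the zinc finger gene BNC2 likewise ended above P0, by 0.36 and 0.42 (SE 0.07 and 0.08, limma adjusted p = 3.3e-05 and 4.4e-05). RANBP6, an importin-like gene, fell by 0.98 from P0 to P15 (SE 0.06, limma adjusted p = 8.1e-14), and its means were 5.40 at P0, 5.02 at P3, then 4.96 at P7 and 4.42 at P15. ERMP1, an endoplasmic reticulum peptidase gene that overlaps RIC1 on the other strand, stayed 0.21 below P0 in P15 (SE 0.05, limma adjusted p = 0.00014). DENND4C, an activator of RAB proteins, and CAAP1, an inhibitor of apoptosis, differed from P0 by -0.66 and -0.64 in P3, by -0.56 and -0.57 in P7 and by 0.08 and -0.10 in P15, where neither passed the test.

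The products of many members have paralogs or work in complexes with proteins encoded elsewhere, and 63 tested partner genes outside chromosome 9 were set beside them. Their median difference from P0 was -0.20 in P3, -0.13 in P7 and 0.13 in P15. In P15, 23 of the 63 (36.5%) were lower and 32 (50.8%) higher (limma, adjusted p-value below 0.05), where 40.9% and 45.3% of all tested genes were called. In P15, which did not enter the choice of the members, 15 of the 32 members with a tested partner had a lower difference from P0 than the median of their partners. Of the augmin subunits, HAUS4 differed from P0 by -0.64 in P3 and HAUS3 by 0.31, where HAUS6 differed by -0.12. JAK1 and TYK2, kinases of the same family as JAK2, differed by -0.21 and 0.05 in P3. KLHL13, the paralog of KLHL9, differed by -1.23 in P3, and the adenylate kinase AK4 by 1.15.

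The 7 members at or below 1 CPM on average were not tested. RLN2, a relaxin hormone gene with a mean of 0.641 CPM, lay just under the minimum, with mean log2 values of 1.24 at P0, 0.60 at P3, then 0.64 at P7 and 0.15 at P15, and ACER2, a ceramidase gene of the Golgi at 0.598 CPM, was at 0.65, 0.38, 0.29 and 1.18. SLC1A1 lay just above it, at 1.80 CPM. PTPRD, TYRP1, SH3GL2, ADAMTSL1 and TEK had means below 0.1 CPM. SH3GL2 was above 0 in 2 of the 16 libraries, and PTPRD was listed at 0 in all P0 and P7 libraries and up to 0.35 in P15.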

How the data were processed

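RNA-sequencing values of 16 libraries, 4 for each of P0, P3, P7 and P15, were used. The study's methods and the submitters' processing notes name STAR 2.6.1a and GRCh38, and the methods name featureCounts for counting. The authors deposited log2 of CPM + 1, cut to 2 decimals. Strand setting and annotation release are not given in the sources used here. The deposited log2 values return to the same CPM sum in every library. Their low values lie on whole-count steps whose size differs between libraries (0.02 to 0.0297 CPM), which quantile normalization would not leave. Library medians over the tested genes were 4.85 to 4.93, which centring would not leave. The values therefore carry neither of these 2 steps, which the methods describe. CPM is relative to the library total, so a change in abundant genes shifts all others.

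The members, gene lists and tests were chosen with earlier results of these data known. Differences between phases were tested in limma 3.58.1 (R 4.3.3), fitting all 16 libraries together with a mean for each phase and a variance prior that follows the expression level, and p-values were adjusted by Benjamini-Hochberg over 13249 genes, those averaging above 1 CPM. The procedure was tested on simulated data. Any tested member could be named, with full values for the 3 highest and 3 lowest in a comparison. Of other genes, the 3 tested protein-coding genes on either side of 28 Mb, the extremes of the stretch and the partners could be named, and not all of them are. One gene next to 28 Mb is not reported by name. Symbols were placed with GENCODE version 44 (91.1% of tested symbols), and promoter windows came from RefSeq on GRCh38.p14. Within a phase, any 2 libraries differed in at least 94.6% of tested genes, so none was a copy of another. Alternatives were pseudocounts of 0.1 and 5, filters, normalizations, blocking on replicate number, a flat variance prior, fits of 2 phases only, and leaving out single libraries.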

Additional observations from a re-analysis of the deposited data

Results flagged for a closer look

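Among 156 groups of 4 libraries (39 members in 4 phases), 7 held a library far from the other 3, by a gap to the nearest of them taking over most of the group's range (Dixon's criterion at the 95% level), where chance flags about 1 in 20 groups. In P0, replicate 2 was low for KANK1 at 5.16 (a gap of 0.833 of the range) and replicate 4 was low for JAK2 at 3.66 (0.95 of the range). In P3, replicate 2 was low for SMARCA2 at 5.40 (0.90), for ZDHHC21 at 4.59 (0.857) and for MLLT3 at 2.24 (0.90), and high for DMRTA1 at 0.48 (0.833). In P15, replicate 4 was high for KLHL9 at 5.09 (1.0 of the range, the other 3 libraries being equal).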

How the results depend on the processing

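Against a median difference of the members from P0 of -0.49 in P3, a pseudocount of 0.1 gave -0.58, a pseudocount of 5 gave -0.39 and quantile normalization gave -0.41, and the median level per P3 library, -0.52, became -0.58, -0.40 and -0.46. A larger pseudocount makes log2 differences smaller by construction. Why quantile normalization moved the values was not tested. The counts of members called in each comparison stayed within 1.5 times their value in every alternative run. Leaving out 1 library at a time gave 14 to 18 members lower and 17 higher in P15 than in P0, 11 to 13 lower and 9 to 14 higher in P7 than in P3, 7 to 9 lower and 26 to 27 higher in P15 than in P3, and 4 to 5 lower and 29 higher in P15 than in P7. The median differences from P0 then ran from -0.52 to -0.49 in P3 and from -0.49 to -0.42 in P7, and the library medians from -0.54 to -0.49 in P3, -0.50 to -0.44 in P7 and -0.03 to 0.02 in P15. With the replicate block by the number in the description, 16 members were lower and 17 higher in P15 than in P0, 12 and 11 in P7 than in P3, 8 and 27 in P15 than in P3, and 5 and 29 in P15 than in P7. Deviations from the phase means correlated at -0.15 to 0.22 over 24 pairs of like-numbered libraries and at -0.15 to 0.15 over 72 unlike-numbered pairs. No clear pairing by number was seen, but such ranges cannot exclude one. For single members, 3955 alternative values kept their side of the threshold, 27 newly passed it and 54 lost it, among them MPDZ in P15 against P0 (8 alternatives) and MTAP in P15 against P3 (13), and no called value changed sign. Differences of genes of a few CPM are the least precise, since a few counts move them.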
